A study of Physcomitrium patens with 8 samples.

Results

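The transcriptional response of wild-type (WT) Physcomitrium patens to abscisic acid (ABA) was measured on 4 arrays, 2 from colonies on ABA and 2 from hydrated colonies. These 4 belong to a series of 8 two-colour oligonucleotide arrays, each of which held RNA of WT and of the atg5 line in separate dyes, and the WT channel alone was used for this comparison. ABA stands for protonemal colonies grown for 7 days and then placed on fresh medium with 50 µM cis-trans ABA under light for 24 h. Hydration stands for colonies grown for 7 days, which received no ABA. All colonies grew at 25 °C under continuous light on agar medium with ammonium tartrate and glucose. The labels describe no group moved to fresh medium without ABA, so the hormone, the transfer and the added day cannot be told apart. The same arrays carried atg5, 1 line that lacks autophagy related gene 5 (ATG5) and is labelled as autophagy deficient, under the same treatments. Drying over silica gel for 24 h (Dehydration) and return of dried colonies to fresh medium for 24 h (Rehydration) gave the other 4 arrays. Whether ABA preceded the drying is not given in the sources used here.

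ABA is the plant hormone that accumulates when tissue loses water. In the established pathway the hormone binds soluble receptors of the PYR/PYL/RCAR family, the bound receptors inhibit PP2C-type protein phosphatases, and protein kinases of the SnRK family are thereby released to activate bZIP transcription factors at ABA-responsive promoters. Protonemata are the filaments in which a moss colony first grows, and ABA treatment is known to make Physcomitrium protonemata tolerant of drying and freezing, with accumulation of late embryogenesis abundant proteins and soluble sugars. The arrays identify transcripts only by gene-model identifiers such as Pp1s4_10V6.1, where the part before V names the locus and the rest the model version. None of these identifiers (0 matches) occurred in the reference gene table of 27567 genes used here. No gene name or role was therefore given to any transcript, genes of the ABA pathway were not picked out, and the tissue label was not set against marker genes.

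Labels name the 2 arrays of each treatment as biological replicates, without saying whether these came from separate cultures. P-values rest on 1 spread per probe, shared by both genotypes and all treatments of the 8 arrays. They do not measure a spread between cultures known to be separate. WT was labelled with Cy3 in replicate 1 and with Cy5 in replicate 2 of both treatments, and each replicate number was 1 slide and 1 scan. The ABA and Hydration channels of 1 replicate thus shared dye, slide and scan. Of the gene spots, 39 and 48.7% were well above background in the WT channel of the ABA arrays, against 48.4 and 52.1% on the Hydration arrays (replicate 1, then 2). Saturation marked 0 gene spots. Levels of the 2 arrays correlated across probes at 0.942 for ABA and 0.946 for Hydration, where probes are not independent replicates, and no pair of arrays held identical values. The 15 probes printed 10 times varied among their spots on 1 array with a median SD of 0.171 (log2 level). In these bulk samples fewer cells of a type and less RNA per cell cannot be told apart.

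A large share of the measured transcripts differed between ABA and Hydration, in both directions. Of 19143 probes tested, 1602 were higher and 2203 lower under ABA than under Hydration in WT (limma separate-channel fit, Benjamini-Hochberg adjusted p under 0.05, here called). Together they made up 19.9% of the probes tested (8.37% higher, 11.5% lower) and lay in 1398 and 1813 loci. The total of 3805 was 2416 without ABA replicate 1 and 2382 without Hydration replicate 1, and the 2203 falls were 1334 without Hydration replicate 2. The larger differences were mostly rises. Called rises of 2-fold or more numbered 799 (4.17% of probes tested) and called falls of that size 852 (4.45%). At least 4-fold, the counts were 281 higher and 172 lower, and at least 8-fold they were 112 higher and 31 lower. At least 32-fold, 27 probes of 26 loci were higher and 0 lower (0 also at an unadjusted p under 0.05). The median called rise was 2-fold and the 95th percentile 10.6-fold, whereas the median called fall was 1.82-fold and the 95th percentile 4.88-fold.

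**Figure D1:**
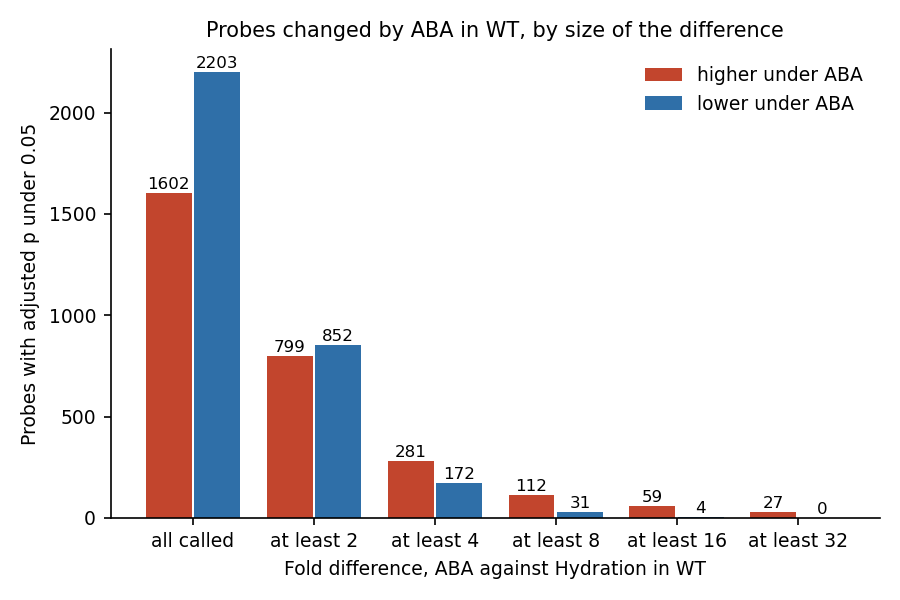
Number of WT probes (vertical axis) with an adjusted p under 0.05 that were higher (red) or lower (blue) under ABA than under Hydration, counted at or above each fold difference (horizontal axis). Falls outnumbered rises over all called probes (2203 against 1602), and rises outnumbered falls from 4-fold on (281 against 172) up to 32-fold (27 against 0).

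The split between higher and lower calls depended on how the arrays were normalized. Over all tested probes the median log2 difference was -0.05, and 42.1% of called probes were higher. Without normalization between arrays, 1170 probes were higher and 6192 lower (15.9% higher, median of all probes -0.33). Scaling to the spike-in spots gave 821 higher and 2237 lower (26.8% higher). With scaling to the 75th percentile, rises outnumbered falls, at 2708 higher and 2522 lower (51.8% higher, median of all probes 0.057). Within arrays, median centring in place of loess gave 357 higher and 866 lower (29.2% higher). The E1A spike-in spots lay at a mean log2 level of 7.11 on the ABA array and 7.52 on the Hydration array of replicate 1, and at 7.12 on the ABA array and 6.92 on the Hydration array of replicate 2. No called probe was called in the opposite direction under any of the 22 alternative settings.

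Both replicates showed the response, with similar medians over the called probes. Among called probes, all 1602 rises and all 2203 falls had the same sign in both replicates, and their ABA and Hydration levels did not overlap. Over all tested probes 78% had the same sign. Since calls were made on the mean of the replicates, the shared sign and the lack of overlap are largely fixed by the calling. How many of all tested probes did not overlap was not counted. The median log2 difference of the called rises was 1.00 in replicate 1 and 0.97 in replicate 2, and that of the called falls was -0.86 and -0.83. These medians too were taken over probes picked by the calling. Of all tested probes, 1232 were at least 2-fold higher in replicate 1 and 1102 in replicate 2, and 1347 and 1112 were at least 2-fold lower. At least 2-fold in both replicates were 719 probes higher and 704 lower, and across all tested probes the replicate differences correlated at 0.716 (Pearson's r over 19143 probes, which are not independent replicates). With the slide, which is the replicate number, as a block, 1862 probes were higher and 2632 lower.

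**Figure D2:**
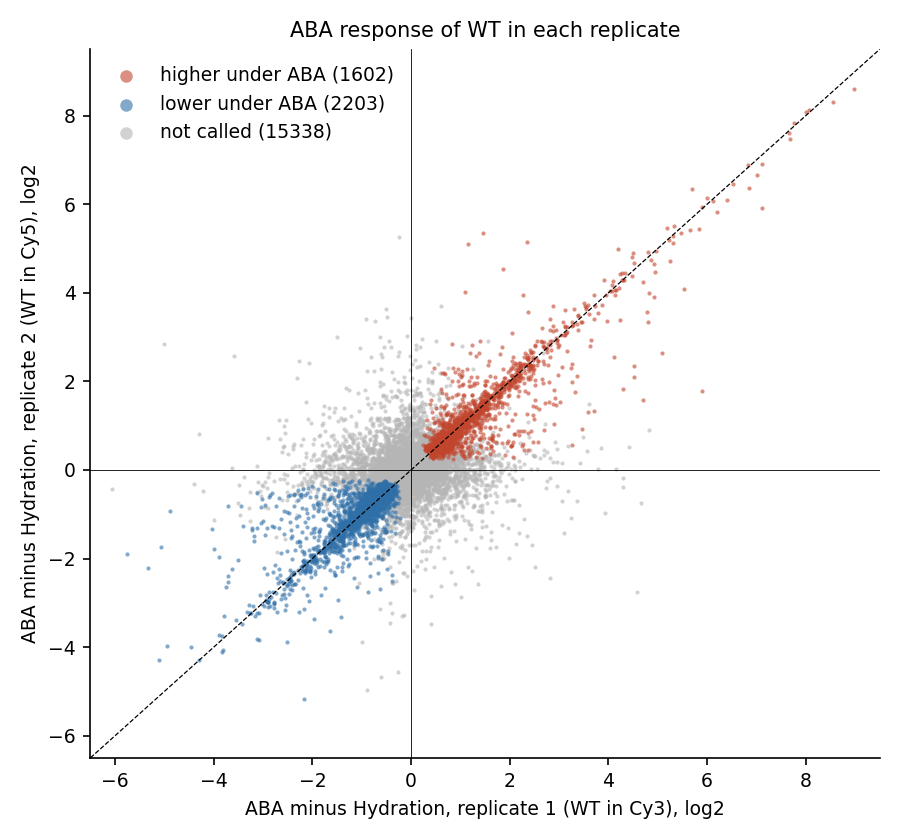
Log2 difference ABA minus Hydration of each tested probe in WT, in replicate 1 (horizontal axis, WT in Cy3) and replicate 2 (vertical axis, WT in Cy5); red points were called higher, blue points lower and grey points not called, and the dashed line marks equal values. Called probes lie along the line, and the calling itself favours small gaps between replicates. The median gap was 0.126 for rises and 0.133 for falls, against 0.154 over all tested probes. Single red and blue points far from the line differ by up to 4.1 log2 units.

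Some probes had replicates far apart despite a call. Pp1s281_123V6.1 had log2 levels of 12.54 and 12.73 under ABA, against 6.65 and 10.94 under Hydration. The widest gap among probes at least 8-fold higher was found here, with differences of 5.90 and 1.79 (mean 3.85 ± 1.02 SE, n = 2 arrays per treatment, adjusted p = 0.022). Among probes at least 8-fold lower it was widest for Pp1s51_117V6.2, at 6.62 and 10.39 under ABA against 12.37 and 12.28 under Hydration (adjusted p = 0.0158). Both were picked after their values were seen.

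Many of the strongest rises started from a level at the limit of measurement. The scanner software marks a spot as well above background or not. Of the 1602 called rises, 1329 were well above background on all 4 WT channels, and 182 on both ABA arrays but on neither Hydration array. Among the 112 that were at least 8-fold higher, 41 were on neither Hydration array well above background. Of the 2203 called falls, 1680 were well above background on all 4 channels, and 207 on both Hydration arrays but on neither ABA array. Over all 38181 probes on the array, tested or not, 289 were well above background on both ABA arrays and neither Hydration array, and 1334 on both Hydration arrays and neither ABA array. The smaller share of measured spots on the ABA arrays moved with this last count, and its part in it was not tested.

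Probes were named as the 10 largest called rises and 10 largest called falls, with the brightest probe standing for a locus, together with the 6 largest in each direction among probes well above background on all 4 WT channels. All levels below are normalized log2 values, and the level of one probe cannot be set against that of another. For a probe not well above background on either array of a treatment, the fold is a lower bound, "at least", taken against the higher of the probe's own signal and the lowest signal well above background on each array.

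Pp1s4_10V6.1 had the largest fitted rise, although the order of rises that are lower bounds is not settled. Its levels were 14.92 and 14.72 under ABA, against 5.94 and 6.11 under Hydration, where it was not well above background on either array. The rise was at least 444-fold (log2 difference 8.79 ± 0.233 SE, n = 2 arrays per treatment, adjusted p = 1.62e-09). With only the 4 WT channels and the replicate number as a block, its adjusted p was 0.0285 (limma), as for each other named rise.

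Pp1s32_209V6.2 lay at 14.49 and 14.28 under ABA and at 5.93 and 5.98 under Hydration, a rise of at least 344-fold (8.43 ± 1.10, adjusted p = 0.000269). Its larger SE than that of the other rises went with a gap between its Rehydration arrays, 8.38 and 13.16, which share the fit. For Pp1s238_73V6.1 the levels were 14.25 and 14.01 under ABA and 6.18 and 5.88 under Hydration, a rise of at least 274-fold (8.10 ± 0.213). A second probe of this locus, Pp1s238_73V6.2, stood at 13.96 and 13.90 under ABA and 6.19 and 6.07 under Hydration, a rise of at least 223-fold.

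Further rises with Hydration arrays not well above background came from 5 loci. Pp1s25_319V6.1 reached 13.70 and 13.34 under ABA, against 6.02 and 5.86 under Hydration (at least 191-fold). Pp1s271_8V6.1 reached 13.04 and 12.84 under ABA, against 5.93 and 5.92 (at least 129-fold), and Pp1s84_138V6.1 reached 12.87 on both ABA arrays, against 6.04 and 5.99 (at least 116-fold). Between treatments the arrays of these probes did not overlap. Pp1s172_27V6.1 stood at 12.86 and 12.66 under ABA and at 5.85 and 5.99 under Hydration (at least 114-fold). Pp1s44_314V6.1 stood at 12.82 and 12.48 under ABA and at 5.97 and 6.11 under Hydration (at least 97.7-fold).

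Rises measured above background on every WT channel are given as a fold rather than a bound. The size of such a fold holds for the processing used here, which adds an offset of 50 to the signals. Pp1s42_233V6.1 was 263-fold higher, with levels of 14.52 and 14.62 under ABA and 6.52 and 6.54 under Hydration (8.04 ± 0.434, adjusted p = 4.16e-07). Pp1s7_391V6.1 was 200-fold higher, at 14.00 and 13.89 under ABA and 6.33 and 6.28 under Hydration (7.64 ± 0.229, adjusted p = 3.78e-09). In both, the replicates of a treatment lay far closer to each other than the treatments did. With the scanner software's processed signals the log2 difference was 9.84 for Pp1s42_233V6.1 and 10.23 for Pp1s7_391V6.1.

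The next of this kind was Pp1s109_92V6.1, at 14.18 and 14.10 under ABA and 7.66 and 7.65 under Hydration (89.3-fold, 6.48 ± 0.203). Pp1s87_107V6.2 stood at 12.96 and 12.86 under ABA and 6.84 and 6.78 under Hydration (68.6-fold, 6.1 ± 0.578). Pp1s241_56V6.1 stood at 12.35 and 12.48 under ABA and 6.35 on both Hydration arrays (67-fold, 6.07 ± 0.582). With Pp1s10_179V6.1, at 12.53 and 12.08 under ABA and 6.32 and 6.26 under Hydration (64.6-fold, 6.01 ± 0.254), the ABA levels of all 14 named rises lay above their Hydration levels by at least 5.82 log2 units in each replicate.

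The named falls were smaller than the named rises. By the rule for naming, they started from levels well above background on both Hydration arrays. Pp1s82_3V6.1 fell most, to 9.56 and 10.39 under ABA, against 14.66 and 14.67 under Hydration. It was 25.8-fold lower (log2 difference -4.69 ± 0.272 SE, n = 2, adjusted p = 6.45e-07). Its ABA arrays differed from each other by more than its Hydration arrays did.

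Pp1s346_19V6.1 stood at 6.95 and 7.88 under ABA and 11.89 and 11.85 under Hydration (21.9-fold lower, -4.45 ± 0.416). Pp1s139_88V6.1 stood at 7.30 and 7.76 under ABA and 11.60 and 12.06 under Hydration (19.7-fold lower, -4.30 ± 0.837, adjusted p = 0.00386). Its SE went with gaps between its Dehydration arrays, 5.66 and 7.25, and its Rehydration arrays, 9.79 and 6.35, which share the fit. Its call was lost with the scanner software's processed signals (adjusted p = 0.133, log2 difference -4.97), with median centring in place of loess (adjusted p = 0.0627, -4.69) and without ABA replicate 1 (adjusted p = 0.0511, -4.0), and both replicates gave -4.30. Pp1s267_61V6.1 was 18.8-fold lower, at 5.87 and 6.40 under ABA, where 1 of the 2 arrays was well above background, and at 10.34 and 10.39 under Hydration. These 4 probes, counting Pp1s82_3V6.1, were all that fell at least 16-fold.

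The second probe of 2 of the falling loci also fell. Pp1s267_61V6.2 stood at 5.91 and 6.12 under ABA and 9.03 and 9.35 under Hydration. It was not well above background on either ABA array, and its fall was at least 8.17-fold (adjusted p = 5.77e-07). Pp1s236_72V6.1 fell to 6.81 and 6.73 under ABA, against 10.70 and 10.45 under Hydration (14-fold lower, -3.81 ± 0.155), and Pp1s236_72V6.2 to 5.83 and 6.36, against 9.58 and 9.01 (-3.20 ± 0.291). Pp1s219_6V6.1 was 11.6-fold lower, at 9.06 and 9.62 under ABA and 12.85 and 12.91 under Hydration (-3.54 ± 0.414).

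Among these falls, Pp1s236_6V6.1 and Pp1s442_25V6.1, identifiers of different loci, gave almost the same levels. Pp1s236_6V6.1 stood at 7.70 and 7.35 under ABA and 11.54 and 11.46 under Hydration (15.7-fold lower, -3.97 ± 0.586). Pp1s442_25V6.1 stood at 7.70 and 7.40 under ABA and 11.52 and 11.46 under Hydration (15.3-fold lower, -3.94 ± 0.13). Over all 16 channels of the series 14 differed by at most 0.1 log2 units, and the widest gap was 2.28. Whether both probes measure the same transcript cannot be told apart from 2 genes with 1 response, since probe sequences were not used here.

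Further falls completed the list. Pp1s111_186V6.1 stood at 7.73 and 8.07 under ABA and 11.57 and 11.81 under Hydration (13.9-fold lower, -3.79 ± 0.819, adjusted p = 0.00715). Its replicate differences were close, at -3.85 and -3.74. Its SE went with a gap between its Rehydration arrays, 7.17 and 10.9, which share the fit. Pp1s240_2V6.1 stood at 8.57 and 7.41 under ABA and 10.74 and 12.59 under Hydration (12.8-fold lower, adjusted p = 0.00135), and its replicates differed in size, at -2.17 and -5.18. On only the 4 WT channels the call of Pp1s240_2V6.1 was lost with the replicate number as a block (limma, adjusted p = 0.13) and without it (0.057). That of Pp1s111_186V6.1 was lost with median centring in place of loess (adjusted p = 0.0952) and with the scanner software's processed signals (0.0539). It was also lost without ABA replicate 1 (log2 difference -3.56), Hydration replicate 1 (-3.9) or Hydration replicate 2 (-3.69).

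**Figure D3:**
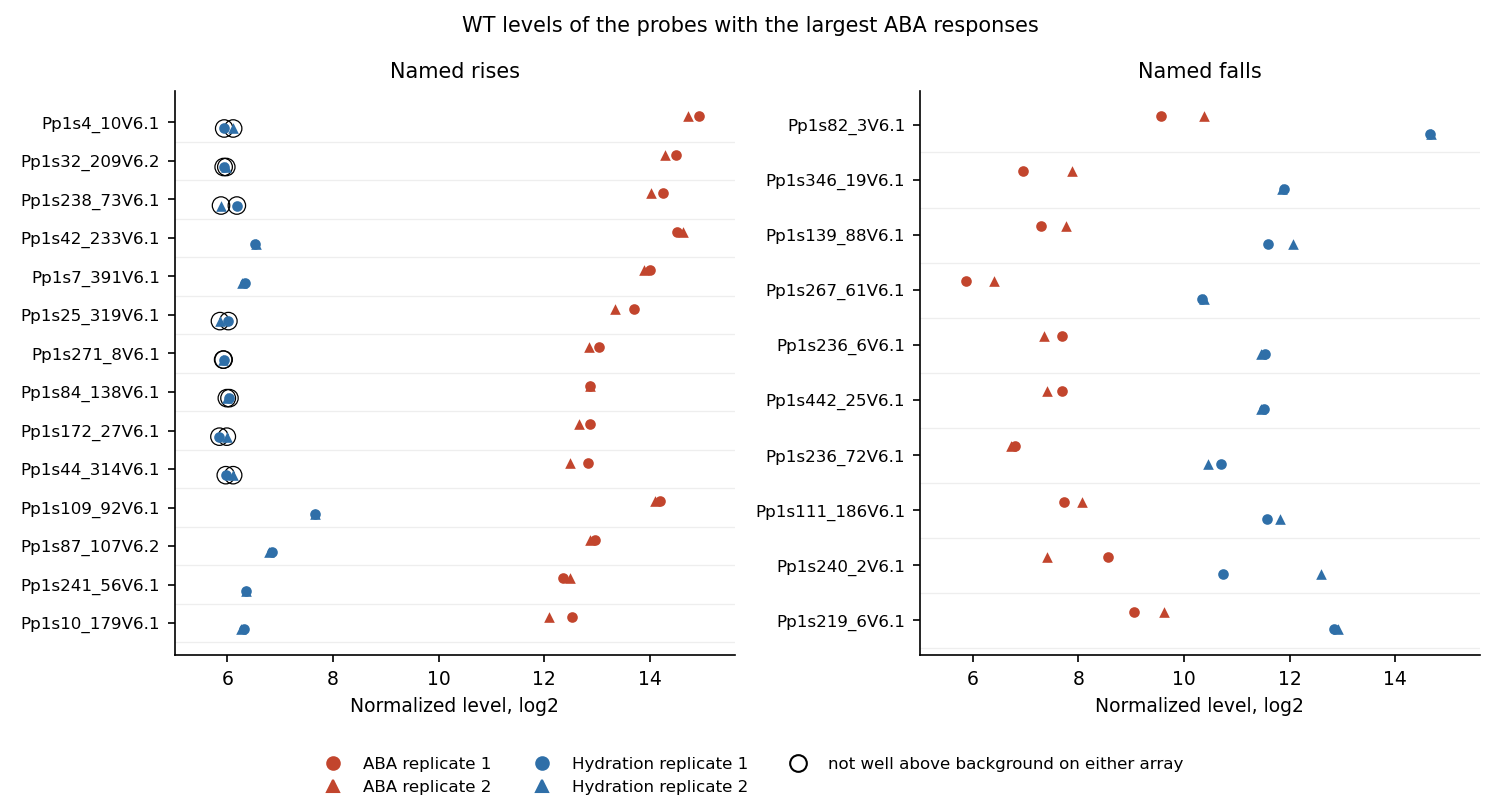
Normalized log2 level (horizontal axis) of the 14 named rises (left) and 10 named falls (right) in WT on the ABA arrays (red) and the Hydration arrays (blue), circles for replicate 1 and triangles for replicate 2; ringed points belong to a probe not well above background on either array of that treatment. ABA and Hydration points of 1 probe do not overlap, and 8 of the 14 rises have ringed Hydration points.

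At 2 of the rising loci a second probe was not called. Pp1s25_319V6.2 stood at 6 and 6.35 under ABA and 5.75 and 5.95 under Hydration (adjusted p = 0.21), while Pp1s25_319V6.1 rose at least 191-fold. The signal of Pp1s25_319V6.2 passed the scanner's test on 1 ABA array and on 0 Hydration arrays, at the limit of measurement. Pp1s87_107V6.1 stood at 7.18 and 7.29 under ABA and 6.92 and 6.98 under Hydration (0.29 ± 0.243, adjusted p = 0.477), while Pp1s87_107V6.2 rose 68.6-fold. In all, 5 of the 24 named loci had a second tested probe, and 3 of these were called in the same direction.

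Across the array, 2777 loci had 2 or more tested probes. All tested probes were called higher at 107 of them and lower at 199. At 572 loci some but not all probes were called, in 1 direction, and at 1896 loci none was. Probes were called in opposite directions at 3 loci.

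At Pp1s167_34 the V6.1 probe stood at 9.04 and 9.17 under ABA and 10.22 and 10.20 under Hydration (-1.10 ± 0.26, adjusted p = 0.0115). The V6.2 probe of that locus, Pp1s167_34V6.2, stood at 9.06 and 9.13 under ABA and 8.41 and 8.29 under Hydration (0.74 ± 0.117, adjusted p = 0.000998). Neither probe's treatments overlapped. Leaving out any 1 of the 4 arrays ended the call of Pp1s167_34V6.1 (adjusted p = 0.0539 to 0.0919) and kept that of Pp1s167_34V6.2.

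At Pp1s180_53, Pp1s180_53V6.1 (0.90 ± 0.222), Pp1s180_53V6.4 (0.86 ± 0.128) and Pp1s180_53V6.5 (1.13 ± 0.183) rose. Pp1s180_53V6.3 stood at 6.08 and 7.70 under ABA and 8.28 and 8.12 under Hydration (-1.31 ± 0.403, adjusted p = 0.042). That fall came mostly from replicate 1, and its call held under 9 of 21 alternative settings. Without ABA replicate 1 it was -0.49 (adjusted p = 0.305), and the call was also lost without Hydration replicate 1 (0.205) or Hydration replicate 2 (0.143). That of Pp1s180_53V6.1 was lost without any 1 of the 4 arrays (adjusted p = 0.0693 to 0.0985), and those of the other two rises were not.

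At Pp1s46_116, Pp1s46_116V6.1 stood at 6.68 and 6.69 under ABA and 7.26 and 7.03 under Hydration (-0.46 ± 0.122, adjusted p = 0.0221). Pp1s46_116V6.2 stood at 9.24 and 9.07 under ABA and 7.18 and 8.77 under Hydration (1.18 ± 0.367, adjusted p = 0.044). The rise rested on the low Hydration array of replicate 1, and its call held under 6 of 22 alternative settings. Without Hydration replicate 1 it was 0.38 (adjusted p = 0.235), and the call was also lost without ABA replicate 1 (0.225) or ABA replicate 2 (0.139). The fall of Pp1s46_116V6.1 lost its call without Hydration replicate 1 (adjusted p = 0.217), ABA replicate 1 (0.117) or ABA replicate 2 (0.105).

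The levels of the same probes in dried and rehydrated WT colonies were read from the same fit. These comparisons share the 2 Hydration arrays with the ABA comparison, so their values are given side by side and no likeness was tested. In Dehydration all 14 named rises were called higher and all 10 named falls lower, where 9.92 and 12.5% of tested probes were called higher and lower. Their log2 differences from Hydration were 5.71 to 8.87 for the rises and -5.37 to -2.65 for the falls, and 8 of the 14 rises are set against Hydration levels at the limit of measurement. In Rehydration, where 14.6 and 20.5% of tested probes were called higher and lower, all 14 rises and 9 of the 10 falls were called. Differences then were 2.02 to 6.99 for the rises and -4.39 to -0.84 for the falls.

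Probes differed in how far the Rehydration level lay from Hydration. For Pp1s84_138V6.1 the log2 difference from Hydration was 6.86 ± 0.181 under ABA, 6.34 ± 0.181 in Dehydration and 2.86 ± 0.181 in Rehydration. For Pp1s172_27V6.1 the same differences were 6.83 ± 0.166, 6.22 ± 0.166 and 6.44 ± 0.166. The Rehydration arrays of Pp1s84_138V6.1 lay at 8.96 and 8.79, between its Hydration and its ABA levels, and those of Pp1s172_27V6.1 at 12.53 and 12.19, near its ABA levels.

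Among the falls, Pp1s236_72V6.1 differed from Hydration by -3.81 ± 0.155 under ABA, -3.49 ± 0.155 in Dehydration and -1.26 ± 0.155 in Rehydration. Pp1s346_19V6.1 differed by -4.45 ± 0.416, -4.03 ± 0.416 and -4.39 ± 0.416. Pp1s240_2V6.1 was the fall not called in Rehydration (-0.84 ± 0.607, adjusted p = 0.309). On the Rehydration arrays 19.3 and 30.6% of gene spots were well above background in WT, and the part of this in these values was not tested.

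**Figure D4:**
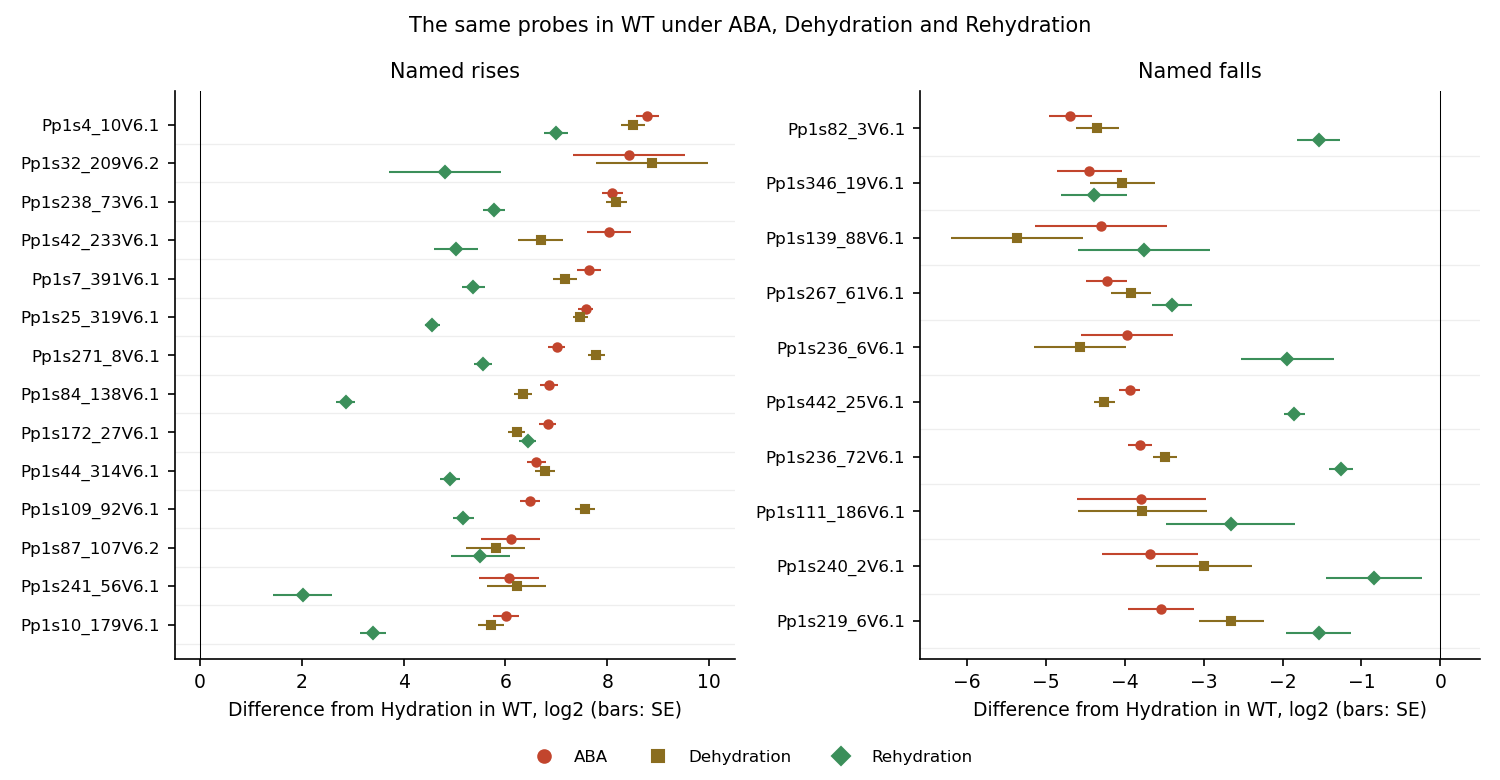
Log2 difference from Hydration in WT (horizontal axis, bars are SE, n = 2 arrays per treatment) of the named rises (left) and falls (right) under ABA (red circles), in Dehydration (brown squares) and in Rehydration (green diamonds). For the rises, Dehydration points lie at 5.71 to 8.87 and Rehydration points at 2.02 to 6.99. Pp1s84_138V6.1 and Pp1s172_27V6.1, with ABA differences of 6.86 and 6.83, have Rehydration points at 2.86 and 6.44.

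The response of the atg5 channel on the same arrays was set beside that of WT to see where the WT response differed. In atg5 1906 probes were higher and 2331 lower under ABA (9.96 and 12.2% of those tested, 22.1% in all). Of the 1602 rises in WT, 1279 were also called higher in atg5, which is 67.1% of the atg5 list and 79.8% of the WT list. Of the 2203 falls in WT, 1557 were also called lower in atg5, 66.8% of the atg5 list and 70.7% of the WT list. The median log2 change of the WT rises was 1.03 in atg5 and 1.00 in WT, and that of the WT falls was -0.80 in atg5 and -0.86 in WT. Across all 19143 probes the responses correlated at 0.902, where both genotypes share arrays, spots and slides.

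The difference of response itself, atg5 minus WT, was called for 1698 probes (8.87%), more positive in atg5 for 954 (4.98%) and more negative for 744 (3.89%). It reached 2-fold for 183 (0.956%) and 86 (0.449%) of these, and 4-fold for 25 and 7. Of the 1602 WT rises 22.9% had a called difference, 204 more positive and 163 more negative in atg5, and of the 2203 WT falls 20.3% had one, 300 more positive and 148 more negative. Since WT values enter both these lists and the difference tested, their shares are not like for like with the share of all probes. The count of 1698 varied widely with the processing, between 0 with median centring in place of loess (limma, 349 at an unadjusted p under 0.05) and 4080 with dye as a term. This count was 578 without ABA replicate 1, 728 without ABA replicate 2, 527 without Hydration replicate 1 and 820 without Hydration replicate 2. Since atg5 is a single knockout line, the missing gene cannot be told apart from anything else in which the line differs from WT.

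All 24 named rises and falls were called in atg5 too, with fitted log2 changes of 5.78 to 8.52 for the rises and -4.55 to -3.63 for the falls. A difference was called for 3 of the 14 rises and 0 of the 10 falls (smallest adjusted p of a fall 0.109). The widest difference among the rises, of Pp1s87_107V6.2, was not called (1.22 ± 0.464, adjusted p = 0.145), with a rise of at least 140-fold in atg5 and 68.6-fold in WT. In atg5 this probe stood at 13.25 and 13.31 under ABA and 5.89 and 6.02 under Hydration. Its SE went with a gap between its WT Rehydration arrays, 11.14 and 13.5, which share the fit. Pp1s109_92V6.1 rose more in atg5, by 7.68, than in WT, by 6.48 (difference 1.19 ± 0.163, adjusted p = 0.00129). Its ABA levels were 14.41 and 14.21 in atg5 and 14.18 and 14.10 in WT, and its Hydration levels 6.61 and 6.65 in atg5 and 7.66 and 7.65 in WT. In atg5, Pp1s109_92V6.1 was well above background on 1 of the 2 Hydration arrays. The other two called differences, of Pp1s238_73V6.1 (-0.66 ± 0.171, adjusted p = 0.0359) and Pp1s84_138V6.1 (-0.62 ± 0.145, adjusted p = 0.0229), set bounds against bounds, since neither probe was well above background on any Hydration channel, and no order of the rises follows. Their ABA levels were 13.37 and 13.41 in atg5 and 14.25 and 14.01 in WT for Pp1s238_73V6.1, and 12.25 and 12.35 in atg5 and 12.87 on both arrays in WT for Pp1s84_138V6.1.

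**Figure D5:**
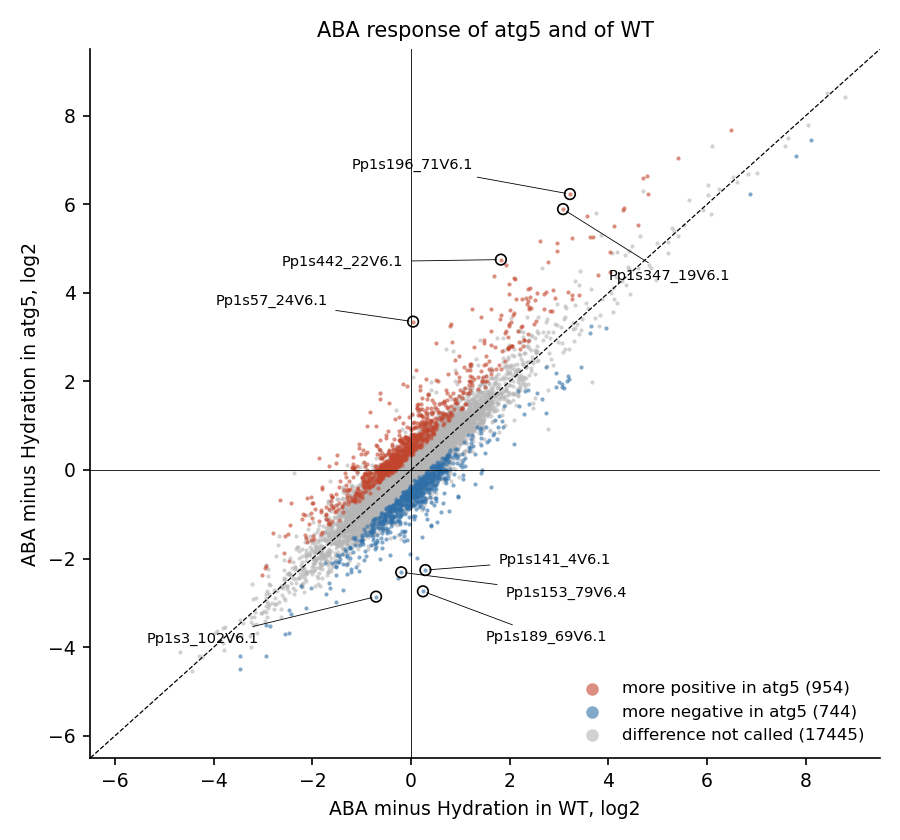
Log2 difference ABA minus Hydration of each tested probe in atg5 (vertical axis) and in WT (horizontal axis); red and blue points have a called difference of response (954 more positive and 744 more negative in atg5), grey points do not, rings mark the 8 probes with the largest called differences, and the dashed line marks equal responses. Most points lie near the line (r = 0.902), and Pp1s57_24V6.1 lies at 3.35 in atg5 and 0.04 in WT.

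The 4 largest positive differences had atg5 levels above those of WT under ABA and below them under Hydration, in each replicate. Pp1s57_24V6.1 stood in atg5 at 10.93 and 10.99 under ABA and 7.42 and 7.81 under Hydration. In WT it stood at 9.16 and 9.04 under ABA and 9.1 and 9.03 under Hydration, with overlapping treatments and no call (0.04 ± 0.188, adjusted p = 0.922). Pp1s196_71V6.1 stood in atg5 at 13.77 and 13.96 under ABA and 7.43 and 7.82 under Hydration, and in WT at 12.46 and 12.48 under ABA and 8.84 and 9.67 under Hydration.

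Pp1s442_22V6.1 stood in atg5 at 11.77 and 11.49 under ABA and 6.91 and 6.85 under Hydration, and in WT at 10.22 and 10.12 under ABA and 8.39 and 8.31 under Hydration. Pp1s347_19V6.1 stood in atg5 at 12.47 and 12.23 under ABA and 6.26 and 6.67 under Hydration, and in WT at 12.26 and 11.79 under ABA and 9.14 and 8.75 under Hydration. In atg5, Pp1s347_19V6.1 was well above background on 1 of the 2 Hydration arrays. WT rose 3.52-fold for Pp1s442_22V6.1, 8.45-fold for Pp1s347_19V6.1 and 9.3-fold for Pp1s196_71V6.1.

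The 4 largest negative differences were of probes that fell in atg5 and were not well above background on either WT ABA array, so their differences rest on WT ABA signals at the limit of measurement. For Pp1s189_69V6.1 and Pp1s141_4V6.1 the WT Hydration levels also lay near the lowest levels well above background there (5.82 and 5.67). That left little room for a fall in WT to be seen. Pp1s189_69V6.1 stood in atg5 at 7.47 and 7.04 under ABA and 10.07 and 9.92 under Hydration, and in WT at 6.35 and 5.78 under ABA and 5.97 and 5.67 under Hydration. Pp1s3_102V6.1 stood in atg5 at 6.80 and 6.70 under ABA and 9.81 and 9.41 under Hydration, and in WT at 6.13 and 5.91 under ABA and 6.77 and 6.68 under Hydration. In WT the second of these was called lower, by at least 1.59-fold (adjusted p = 0.0197), and the first was not called (adjusted p = 0.471). The WT call of Pp1s3_102V6.1 was lost without any 1 of the 4 arrays (adjusted p = 0.053 to 0.166) and with a minimum fold of 1.2 (0.121).

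Pp1s141_4V6.1 stood in atg5 at 6.56 and 6.41 under ABA and 9.43 and 8.06 under Hydration, and in WT at 6.07 and 5.94 under ABA and 5.70 and 5.72 under Hydration. Pp1s153_79V6.4 stood in atg5 at 7.03 and 6.73 under ABA and 9.36 and 9.01 under Hydration, and in WT at 6.47 and 6.12 under ABA and 6.55 and 6.43 under Hydration. Neither was called in WT (adjusted p = 0.75 and 0.573).

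Opposite calls in the genotypes were rare. Probes higher in WT and lower in atg5 numbered 5, and probes lower in WT and higher in atg5 numbered 9, and all 14 had a called difference of response. Pp1s423_24V6.1 stood in atg5 at 8.64 and 8.51 under ABA and 9.28 and 9.07 under Hydration, and in WT at 7.63 and 7.46 under ABA and 6.62 and 6.55 under Hydration (-0.59 ± 0.122 in atg5, 0.96 ± 0.122 in WT). The other four were Pp1s414_12V6.2 (-0.93 in atg5, 0.76 in WT), Pp1s302_51V6.1 (-0.52, 0.67), Pp1s183_93V6.3 (-0.48, 0.46) and Pp1s431_6V6.2 (-0.43, 0.41). Of the 9, Pp1s218_59V6.1 had the largest difference, at 10.86 and 10.81 under ABA and 9.1 and 9.35 under Hydration in atg5, and at 10.28 and 10.34 under ABA and 10.87 and 11 under Hydration in WT (1.61 ± 0.127 in atg5, -0.62 ± 0.127 in WT). These were picked after their values were seen.

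Most of the strongest WT responses were also called in atg5, though not always at the same size. Of the 112 probes at least 8-fold higher in WT, 111 were called in atg5 and all 112 were at least 2-fold higher there in the fitted difference. A difference of response was called for 36 of the 112 (32.1%, against 8.87% of all tested probes), further from 0 in atg5 for 22 and nearer to 0 for 14, and 18 of the 36 were well above background on all 8 ABA and Hydration channels of both genotypes. WT values enter both the choice of such probes and the difference tested, so these shares are not like for like. The probe not called in atg5 was Pp1s77_124V6.1, on no Hydration channel well above background, at 8.01 and 8.09 under ABA and 6.09 and 6.03 under Hydration in atg5, and at 9.67 and 9.56 under ABA and 5.88 and 6.02 under Hydration in WT (1.99 ± 0.695, adjusted p = 0.0659 in atg5). All 31 probes at least 8-fold lower in WT were called lower in atg5. A difference was called for 3 of these 31 (9.68%), Pp1s186_60V6.1 (-4.49 in atg5, -3.47 in WT), Pp1s97_59V6.1 (-4.20 in atg5, -3.46 in WT) and Pp1s78_70V6.2 (-2.37 in atg5, -3.02 in WT). Pp1s186_60V6.1 was on neither atg5 ABA array well above background.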

How the data were processed

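The deposited scanner files, made with Agilent Feature Extraction 9.5.3.1 per the file headers and with 9.1 per the submitters' processing notes, hold median pixel and local background intensities for each dye. The authors' deposited table of normalized intensities equalled the scanner files' processed signals at all 39733 spots in every column (within 0.1%) and was not a separate measurement. Medians were used although mean signals had been foreseen, since the files hold no means.

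Background was corrected with normexp at an offset of 50, followed by loess normalization within arrays with control spots at weight 0 and Aquantile normalization between arrays (limma 3.58.1, R 4.3.3). Outlier-marked spots were set to missing, and repeat spots were averaged per probe. A probe entered when some genotype had both arrays of 1 treatment well above background (19741 of 38181 probes). Of these, 598 with a probe value missing on any array were dropped, which left 19143 probes of 15119 loci. A separate-channel fit over all 8 arrays (intraspotCorrelation, 0.678, lmscFit and eBayes, statmod 1.5.0) gave ABA minus Hydration in WT and in atg5 and the difference of both, with Benjamini-Hochberg adjustment over all probes at a threshold of 0.05. Intensities set no depth, and 2 arrays per group limit the precision. The fit was tested on simulated data.

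The comparison, the rule for named probes and the alternatives were chosen with earlier results of these data known. That rule takes, for each locus, the brightest probe over the 4 WT channels. It names the 10 largest called rises and falls (well above background on both arrays of the higher treatment), the 6 largest each way among probes well above background on all 4 WT channels, the 4 largest differences of response each way, and loci with opposite calls. Gene lists and cell type markers were not used, because no identifier could be paired with a gene name. The amount of RNA labelled is 200 ng per the labels, and the series' text differs.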

Additional observations from a re-analysis of the deposited data

Results flagged for a closer look

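The response to ABA differed between atg5 and WT, by the test of the difference itself (limma, adjusted p under 0.05), for 1698 probes. The 4 largest positive differences, atg5 minus WT on the log2 scale, were 3.31 for Pp1s57_24V6.1 (adjusted p = 1.65e-06), 3.02 for Pp1s196_71V6.1 (2.82e-05), 2.93 for Pp1s442_22V6.1 (5.74e-06) and 2.81 for Pp1s347_19V6.1 (5.44e-05). The 4 largest negative ones were -2.98 for Pp1s189_69V6.1 (5.4e-06), -2.55 for Pp1s141_4V6.1 (0.00256), -2.15 for Pp1s3_102V6.1 (1.61e-05) and -2.11 for Pp1s153_79V6.4 (2.84e-05). Each of these 8 had the same sign in both replicates. All 8 lost their call with median centring in place of loess, where 0 probes were called (limma, 349 at an unadjusted p under 0.05), with values of 3.01 to 3.75 for the positive ones and -2.17 to -1.3 for the negative ones. The 4 negative ones were also not called with the scanner software's processed signals, at -1.2 for Pp1s189_69V6.1, -2.06 for Pp1s141_4V6.1, -0.19 for Pp1s3_102V6.1 and -1.64 for Pp1s153_79V6.4. With 2 arrays per treatment, no group was large enough for a test of single outlying samples.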

How the results depend on the processing

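For the named rises and falls, 509 of 519 recomputed WT values kept their direction and their call and 10 lost the call, those of Pp1s139_88V6.1, Pp1s111_186V6.1 and Pp1s240_2V6.1. In place of the 3805 calls in WT, 7362 were made without normalization between arrays (6192 falls), 1223 with median centring in place of loess (357 rises and 866 falls) and 2105 with a minimum fold of 1.2 tested (945 rises and 1160 falls). Scaling to the 75th percentile gave 2708 rises and 2522 falls. Spike-in scaling gave 821 rises, processed signals 1393 falls, and the fit without the Rehydration arrays 3342 falls. Leaving out 1 array (with the intraspot correlation of all 8 arrays) gave 2382 to 2779 calls in WT, 998 to 1282 rises and 1255 to 1708 falls. The difference of response was called for 4080 probes with dye as a term, 1058 on only the 4 Hydration and ABA arrays, 253 with processed signals, 480 with quantile normalization between channels, 0 with median centring (349 unadjusted), 607 with no filter on dim probes, 413 with a minimum fold of 1.2, and 527 to 820 without 1 array. In atg5 the 4237 calls were 7289 without normalization between arrays, 504 with median centring and 2481 with a minimum fold of 1.2. The cause of these shifts was not tested.

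Deviations of same-numbered channels from their treatment means correlated at 0.0355 to 0.105, and most pairs fell short of 0.1, so the numbers were not taken as a pairing of the arrays. With the replicate block, 4494 probes were called in WT, 4846 in atg5 and 1261 for the difference of response. With the replicate block and dye as terms the difference was called for 3271. On only the 4 WT channels, 1988 were called with the replicate block (957 rises and 1031 falls) and 3852 without it.

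WT responses that were not called crossed 0 for 3 probes. Pp1s57_24V6.1 gave -0.15 without normalization between arrays, -0.05 with spike-in scaling, -0.18 with median centring and -0.05 to 0.07 when 1 array was left out. Pp1s189_69V6.1 gave -2.29 with processed signals, -0.26 without normalization between arrays, -0.15 with quantile normalization and with spike-in scaling, -0.16 with median centring and -0.04 to 0.54 when 1 array was left out. Pp1s141_4V6.1 gave -1.79 with processed signals, -0.11 without normalization between arrays, -0.07 with quantile normalization and -0.00042 with spike-in scaling. Pp1s189_69V6.1 and Pp1s141_4V6.1 were not well above background on either WT ABA array, Pp1s57_24V6.1 was on all 4 WT channels, and the cause was not tested. Settings for gene lists were not run, because no identifier could be paired with a gene name.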

Other observations

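Probes dropped from the fit for a marked outlier spot held rises more often than those tested. Of the 598 dropped, 245 had values on all 4 WT channels, and 18.8% of these were at least 2-fold higher under ABA in both replicates, against 3.76% of the 19143 tested. At least 2-fold lower in both were 4.08% of the dropped probes and 3.68% of those tested. Their mean log2 difference was above 5 for 4 probes, picked after their values were seen. Pp1s78_96V6.1 stood at 13.89 and 14.12 under ABA and 6.28 and 6.24 under Hydration, and Pp1s15_467V6.1 at 13.27 and 11.16 under ABA and 6.04 and 6.24 under Hydration. Pp1s118_232V6.2 stood at 13.31 and 13.27 under ABA and 7.52 and 7.65 under Hydration, and Pp1s172_69V6.1 at 10.70 and 11.37 under ABA and 5.90 and 6.07 under Hydration. No test was made of these probes.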
